A study of Arabidopsis thaliana with 22 samples.

Results

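The 10 genes described here were chosen by function and by gene identifier. They encode the proteins that carry the brassinosteroid (BR) signal from the plasma membrane to the transcription factors BES1 and BZR1. They are the receptors *BRI1* (AT4G39400), *BRL1* (AT1G55610) and *BRL3* (AT3G13380), the co-receptor *BAK1* (AT4G33430), the receptor inhibitor *BKI1* (AT5G42750), the cytoplasmic kinase *BSK1* (AT4G35230), the phosphatase *BSU1* (AT1G03445), and the GSK3-like kinases *BIN2* (AT4G18710), *BIL1* (AT2G30980) and *BIL2* (AT1G06390). They are 10 of the 32833 genes in the deposited table.

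BRI1 is a leucine-rich repeat receptor kinase that binds BRs outside the cell, and BRL1 and BRL3 are close relatives that also bind BRs and are best known from vascular tissue. When BRs are bound, BKI1 leaves the receptor, BRI1 pairs with BAK1, and kinases such as BSK1 pass the signal on to the phosphatase BSU1. BSU1 inactivates BIN2 and its relatives, which otherwise phosphorylate BES1 and BZR1 and hold them inactive. Many of these steps act on proteins, and the data here are transcript levels.

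The study sequenced the 3′ ends of polyadenylated transcripts (QuantSeq) from whole seedlings of *Arabidopsis thaliana* accession Col-0 at 7 days. The genotypes were WT, *baf1* and *bes1-D*. The *baf1* line is a T-DNA knockout of an F-box protein that the study examined as a ubiquitin ligase for BES1. The *bes1-D* line carries a gain-of-function allele of *BES1* brought into Col-0. Each genotype was grown without brassinazole (BRZ), an inhibitor of BR biosynthesis, or with 250 nM BRZ. Each genotype had 4 libraries without BRZ. With BRZ, WT and *bes1-D* had 3 libraries each and *baf1* had 4. Every seedling sample mixes all organs, so fewer cells of a type and less RNA per cell cannot be told apart.

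Values are the authors' normalized read counts, adjusted to a common library size (column totals of 3.634 to 3.637 × 1e6 reads), so the sequencing depth is hidden. Depth estimated from low values lay between 2.11 and 5.16 × 1e6 reads, with a median of 3.76 × 1e6. *BAF1* itself averaged 327.4 ± 49.2 (SD, n = 4) in WT and 9.78 ± 3.03 in *baf1*. *DWF4*, a BR biosynthesis gene repressed by BR signalling, averaged 105.7 ± 17.2 in WT and 228.8 ± 34.4 in WT with BRZ. Both followed the labels. Summed markers of shoot (5 genes) and root (5 genes) were above 0 in every group. The summed level of 12 seed storage and oil body transcripts reached 1779 in replicate 4 of *baf1* with BRZ and was at most 506 elsewhere outside that group.

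The members covered a wide range of levels. QuantSeq counts transcript ends, so levels are given without a correction for transcript length. In WT without BRZ, *BSK1* averaged 350.6 ± 35.0, *BIN2* 300.4 ± 28.2, *BRI1* 297.4 ± 28.8 and *BAK1* 277.7 ± 40.4. The ranges of each neighbouring pair in that order overlapped. *BIL1* followed at 189.8 ± 35.8, *BIL2* at 85.5 ± 12.1, *BKI1* at 32.9 ± 4.61, *BRL1* at 22.0 ± 8.90 and *BRL3* at 14.4 ± 3.11. Adjacent ranges overlapped again among *BKI1*, *BRL1* and *BRL3*. *BSU1* was listed at 0 in 6 of 22 libraries, had a median of 0.021 and did not exceed 1.717, so this phosphatase gene could not be tested. With normalized values this low, a value above 0 need not stand for a read. In *bes1-D* without BRZ the order differed for *BRI1*, which at 191.9 ± 11.3 ranked below *BAK1* (217.3 ± 21.8) and *BIL1* (203.9 ± 33.4), with overlapping ranges. The relatives of *BSU1*, *BSL1*, *BSL2* and *BSL3* averaged 51.9 ± 11.1, 114.1 ± 24.5 and 82.0 ± 8.03 in WT without BRZ.

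**Figure D1:**
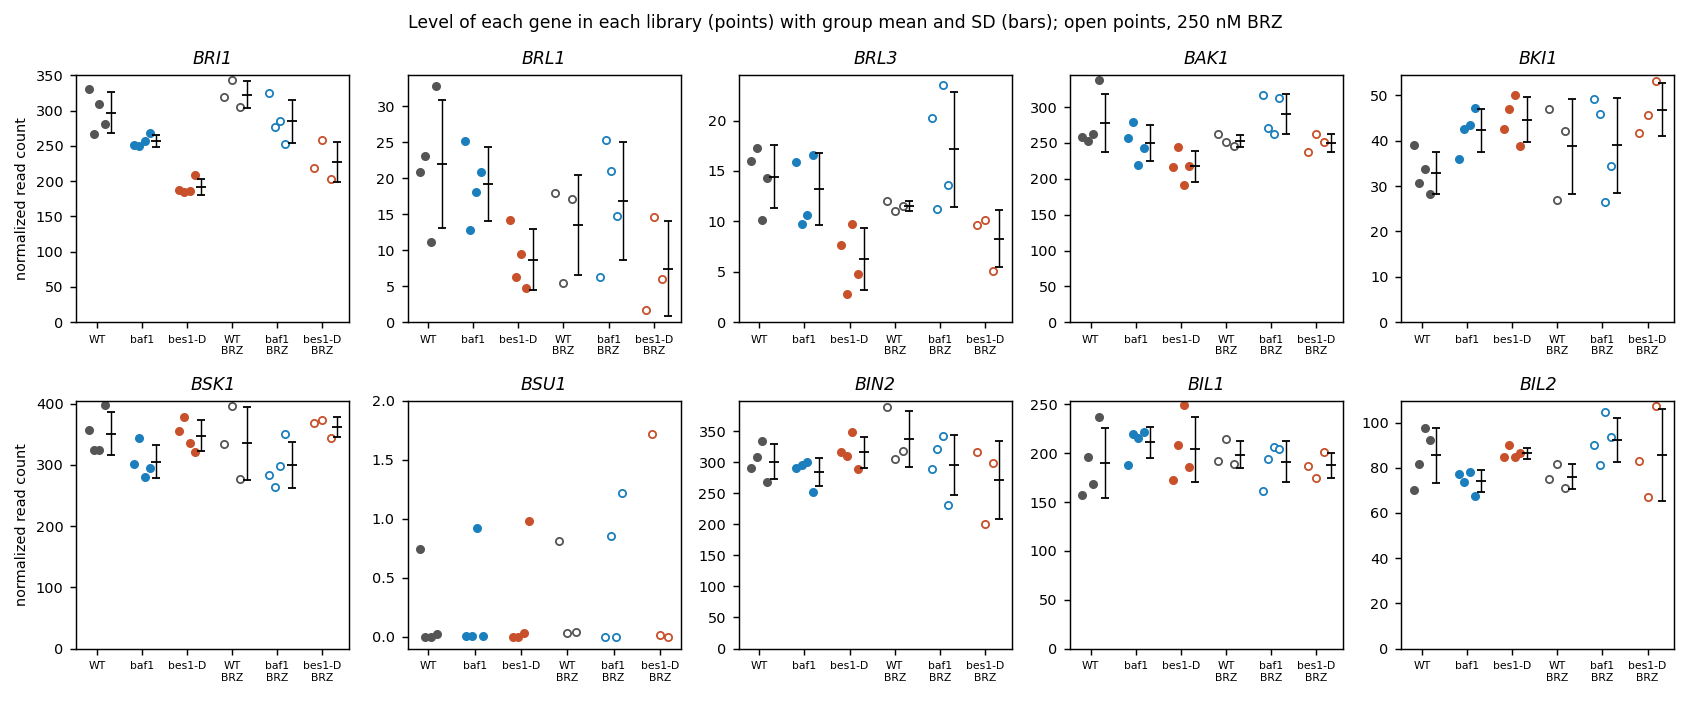
Normalized read count of each of the 10 genes (y axis, from 0 except for *BSU1*) in each of 22 libraries, by genotype and BRZ (x axis). Points are libraries, bars give group mean and SD (not drawn for *BSU1*), and open points had 250 nM BRZ. *BRI1* in *bes1-D* without BRZ lies between 184.1 and 208.7, below every WT library, while *BIN2*, *BIL1* and *BSK1* ranges overlap between WT and *bes1-D*.

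BES1 and BZR1 bind the BR response element (BRRE, CGTGTG or CGTGCG) and E-boxes (CANNTG). Promoter letters are therefore shown for the 4 members that were lower in *bes1-D* without BRZ by the study's criterion, described below. Each window runs from 250 bases before to 50 bases after the annotated start, 5′ to 3′ on the gene's strand, from the RefSeq annotation of TAIR10.1. Capitals mark BRRE, G-box (CACGTG) and E-box matches, searched on both strands.

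BRI1: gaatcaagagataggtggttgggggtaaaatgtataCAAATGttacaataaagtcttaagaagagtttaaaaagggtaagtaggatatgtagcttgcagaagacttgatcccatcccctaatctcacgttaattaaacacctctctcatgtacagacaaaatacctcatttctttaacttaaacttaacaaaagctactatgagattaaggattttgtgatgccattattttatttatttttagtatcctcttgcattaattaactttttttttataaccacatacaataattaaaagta
BRL1: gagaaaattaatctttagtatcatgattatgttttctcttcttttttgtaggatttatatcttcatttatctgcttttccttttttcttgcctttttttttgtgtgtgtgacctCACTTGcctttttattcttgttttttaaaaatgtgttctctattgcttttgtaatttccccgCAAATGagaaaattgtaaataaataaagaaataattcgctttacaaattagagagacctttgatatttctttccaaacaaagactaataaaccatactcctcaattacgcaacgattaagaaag
BRL3: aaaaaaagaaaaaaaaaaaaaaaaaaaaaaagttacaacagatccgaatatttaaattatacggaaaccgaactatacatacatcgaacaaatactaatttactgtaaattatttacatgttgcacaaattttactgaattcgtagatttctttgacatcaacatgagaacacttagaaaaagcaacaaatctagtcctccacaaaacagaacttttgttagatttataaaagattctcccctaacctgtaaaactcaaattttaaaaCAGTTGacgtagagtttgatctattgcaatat
BAK1: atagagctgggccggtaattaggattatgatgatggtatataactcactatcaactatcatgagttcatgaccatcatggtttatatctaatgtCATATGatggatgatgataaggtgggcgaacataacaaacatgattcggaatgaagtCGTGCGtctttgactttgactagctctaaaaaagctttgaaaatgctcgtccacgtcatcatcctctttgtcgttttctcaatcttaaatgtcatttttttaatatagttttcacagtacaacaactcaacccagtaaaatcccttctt

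The BRI1 window is chr4:18324207-18324506 on the plus strand, and it holds 1 E-box starting at -214 from the annotated start. The BRL1 window is chr1:20783968-20784267 on the minus strand, with E-boxes at -136 and -74. The BRL3 window is chr3:4346080-4346379 on the plus strand, with an E-box at 19 bases into the transcript. The BAK1 window is chr4:16090783-16091082 on the minus strand, with an E-box at -156 and the letters CGTGCG at -99. Among the 10 genes *BAK1* was the one with a BRRE match, which 8.19% of 27443 promoters of the same length hold. No member held a G-box, found in 7.68% of promoters. E-boxes were also found in *BKI1* and *BIL2*, and 61.7% of all promoters hold at least 1. A match is a description of letters and not of binding.

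The comparison of *bes1-D* with WT without BRZ asked how the constitutive form of BES1 is associated with the expression of the genes upstream of it. The main receptor gene *BRI1* was lower in *bes1-D*, also after adjustment over all tested genes. The co-receptor gene *BAK1* was lower and the inhibitor gene *BKI1* higher only before that adjustment. The receptor genes *BRL1* and *BRL3* had few reads and lower values in *bes1-D*, and *BSK1* and the 3 GSK3-like kinase genes met no threshold. Genes were tested with limma on log2(value + 1), where a mean of at least 10 over the libraries compared was required. A gene met the study's criterion when its fold change exceeded 1.1 with an unadjusted limma P-value below 0.05 (two-sided). The study applied these cutoffs to P-values from PoissonSeq, so the calls here are not its own calls. Benjamini-Hochberg adjusted p-values over all tested genes are given beside the criterion. By the criterion with limma 5 of the 9 tested members changed, against 22.3% of all 16270 genes tested. Of the 5, 4 were lower, and 8.06% of all genes were. The other was higher, and 14.2% of all genes were. With an adjusted p under 0.05, 1 of 9 members passed, against 7.52% of all genes. *BRL1* and *BRL3* passed the minimum of 10 only through their WT values, so these counts are no support for a fall of the members. Among the 7 members with both group means at 10 or more, 3 met the criterion, *BRI1* and *BAK1* lower and *BKI1* higher.

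*BRI1* was 331.4, 267.5, 309.9 and 280.9 in the 4 WT libraries and 188.0, 184.1, 186.8 and 208.7 in the 4 *bes1-D* libraries. The groups did not overlap, and every *bes1-D* library lay well below the lowest WT library. The fall was 35.2%, or a log2 change of -0.63 (SE 0.11, n = 4 and 4, limma adjusted p = 0.00129). The exact permutation p was 0.029, the smallest that 4 against 4 libraries can give. *BRI1* was past both thresholds in each of the alternative fits, with log2 changes between -0.69 and -0.57.

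*BRL1* was 20.86, 23.16, 11.14 and 32.81 in WT and 14.23, 6.234, 9.536 and 4.778 in *bes1-D*. The WT library at 11.14 lay below the highest *bes1-D* library, so the groups overlapped. The log2 change was -1.25 (SE 0.38, limma adjusted p = 0.0522, exact permutation p = 0.057). *BRL3* was 15.99, 17.3, 10.16 and 14.31 in WT and 7.686, 2.793, 9.716 and 4.769 in *bes1-D*, without overlap. Its log2 change was -1.18 (SE 0.39, limma adjusted p = 0.0768, exact permutation p = 0.029). Both genes had *bes1-D* means under the minimum of 10 and entered the test through their higher WT values, which favours a lower result. With no filter on low values both met the criterion at the same log2 changes, with limma adjusted p = 0.213 and 0.182. With about 22.3 reads behind a WT value of *BRL1* and 15.5 behind one of *BRL3*, estimated counting error alone gave a coefficient of variation of 21.2% and 25.4%. The log2(value + 1) scale understates their changes. Both met the criterion wherever they were tested, but *BRL3* fell under the minimum mean in 3 of the 8 fits that left out a library.

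*BAK1* was 258.7, 252.1, 262.1 and 338.0 in WT and 216.3, 244.4, 191.0 and 217.4 in *bes1-D*, without overlap. The log2 change was -0.35 (SE 0.12, limma adjusted p = 0.0921). WT replicate 5 stood apart at 338.0, and leaving out a library in turn gave log2 changes between -0.41 and -0.25. The annotated 3′ end of *BAK1* overlaps AT4G33420 on the other strand over 78 bases, and the methods name a QuantSeq FWD pipeline, made for libraries that keep the strand, without the strand setting of the counting. AT4G33420 averaged 98.6 ± 6.75 in WT and 71.8 ± 10.9 in *bes1-D*, so it was also lower. The part of this overlap in the *BAK1* result was not tested.

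*BKI1*, whose product keeps BRI1 inactive, was 38.98, 30.75, 33.66 and 28.24 in WT and 42.67, 46.88, 50.08 and 38.84 in *bes1-D*. The highest WT library, 38.98, lay just above the lowest *bes1-D* library, 38.84. The log2 change was 0.43 (SE 0.19, limma adjusted p = 0.181, exact permutation p = 0.057). The call was lost in 6 of 15 alternative fits, among them those without WT replicate 2 or 5 and without *bes1-D* replicate 2 or 3. Of the 9 tested members, 3 did not overlap between *bes1-D* and WT, namely *BRI1*, *BRL3* and *BAK1*. *BRL3* is in this count only through its WT values, so the count is no support for a fall of the members. In all tested genes 14.4% did not overlap, and 5.56% were lower without overlap.

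*BSK1*, which BRI1 phosphorylates, was 323.9 to 397.7 in WT and 321.4 to 378.7 in *bes1-D*. The log2 difference was -0.01, with a 95% interval from -0.23 to 0.21. *BIN2* was 267.6 to 334.2 in WT and 288.3 to 348.5 in *bes1-D*, a difference of 0.07 with an interval from -0.15 to 0.30. *BIL1* was 157.0 to 237.5 in WT and 172.4 to 248.9 in *bes1-D*, with an interval from -0.20 to 0.41. *BIL2* was 70.27 to 97.42 in WT and 84.77 to 89.9 in *bes1-D*, with an interval from -0.27 to 0.33. Ranges of all 4 overlapped between the genotypes. The intervals of the 4 genes leave out a fall as large as that of *BRI1*.

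**Figure D2:**
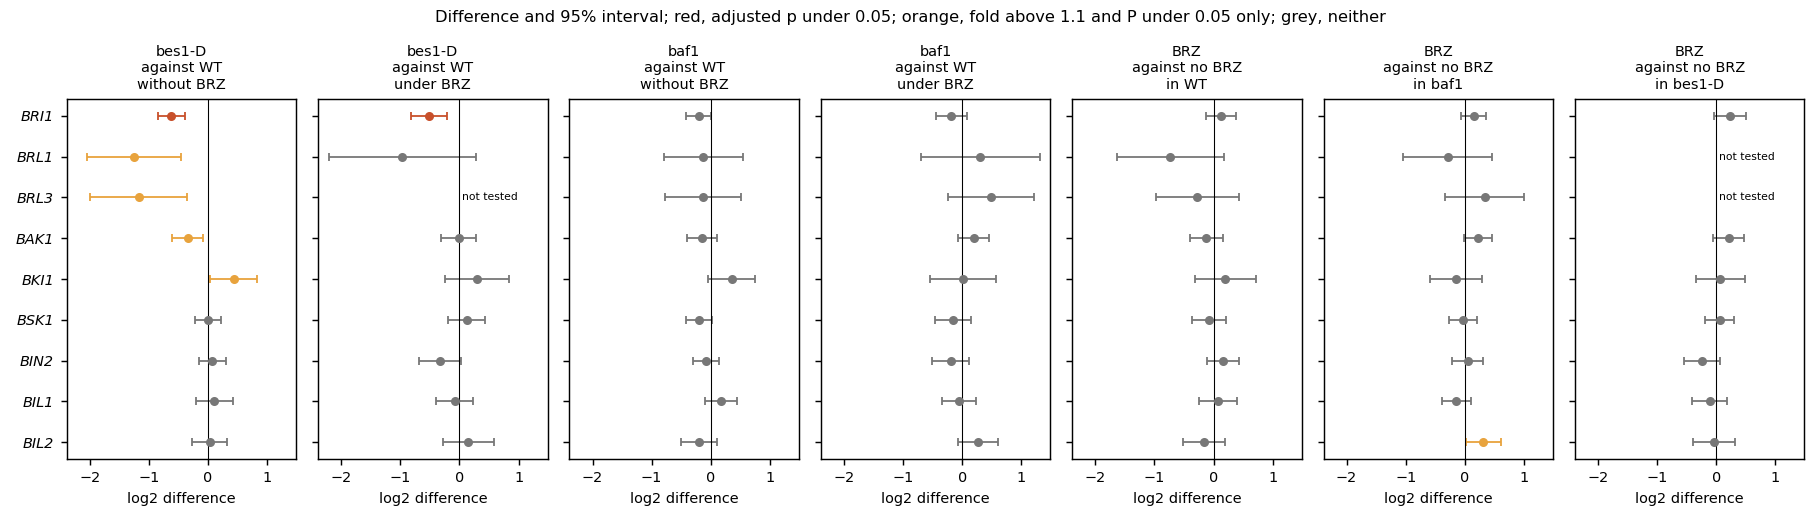
Log2 difference (x axis) with its 95% interval for the 9 testable genes (y axis) in 7 comparisons of groups. Red marks an adjusted p under 0.05, orange only a fold above 1.1 with P under 0.05, and grey neither. *BRI1* is red in both comparisons of *bes1-D* with WT, at -0.63 without BRZ and -0.51 with BRZ.

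The levels of shoot markers also differed with this genotype. Their sum was 81940 to 92930 in WT and 74170 to 77860 in *bes1-D*, and 2 of 5 were lower at an adjusted p under 0.05. With BRZ it was 94100 to 102500 in WT and 65230 to 73680 in *bes1-D*. The sum of the root markers, nearly all of it from *PYK10*, was 11050 to 12710 in WT and 11800 to 14230 in *bes1-D* without BRZ. Of the 5 root markers, *PHO1* was higher without BRZ at an adjusted p under 0.05. Another 1 was lower by the study's criterion only, and the median log2 difference of the 5 was -0.10. With BRZ the root hair genes *COBL9* (39.7 ± 5.44 in WT, 17.7 ± 3.22 in *bes1-D*) and *EXPA7* (86.1 ± 27.2 and 45.4 ± 5.36) were lower at that threshold. The part of tissue make-up in the receptor result was not tested.

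With BRZ in the medium, the same comparison of *bes1-D* with WT called 1 of 8 tested members, *BRI1*, against 24.4% of all genes, 10.7% lower and 13.7% higher. At an adjusted p under 0.05 it was also 1 of 8, against 11.1%. *BRI1* was 319.3, 343.2 and 305.8 in WT and 219.4, 258.1 and 202.9 in *bes1-D*. Every *bes1-D* library lay below every WT library, as did 11.6% of tested genes. The log2 change was -0.51 (SE 0.15, n = 3 and 3, limma adjusted p = 0.0282). The exact permutation p was 0.10, the smallest that 3 against 3 libraries can give. It kept the study's criterion in 13 of 13 alternatives, but the adjusted p passed in 1 of 6 fits that left out a library and reached 0.125 in those fits. *BRL3* was not tested, since it averaged 11.5 ± 0.477 in WT and 8.28 ± 2.82 in *bes1-D*. *BRL1* was 5.434 to 17.92 in WT and 1.695 to 14.65 in *bes1-D*. *BAK1* was 245.2 to 262.3 in WT and 237.6 to 262.8 in *bes1-D*, a log2 difference of -0.01 with an interval from -0.31 to 0.28. *BKI1* was 27.01 to 46.96 in WT and 41.63 to 53.22 in *bes1-D*. The count was 2 without WT replicate 2 or without *bes1-D* replicate 1 or 5.

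Whether BRZ altered these genotype differences was tested as an interaction. None of 9 members passed for *bes1-D*, either at an unadjusted P under 0.05, as 13.7% of all genes did, or at an adjusted p, as 0.239% did. The smallest P was that of *BIN2*, with an interaction of -0.40 (SE 0.20, limma adjusted p = 0.386). *BIN2* was 304.9 to 389.4 in WT and 200.5 to 316.8 in *bes1-D* with BRZ, where replicate 3 of *bes1-D* was the lowest of all 22 libraries at 200.5. For *BAK1* the interaction was 0.33 (SE 0.17, limma adjusted p = 0.419). The count was 1 in 6 of the fits that left out a library. The difference in *BAK1* without BRZ is therefore not shown to differ from that with BRZ.

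A fit chosen after seeing the data took the libraries of WT and *bes1-D* from both media, 14 in all, with BRZ as a term. It called 5 of 9 members, against 29.4% of all genes, and 3 at an adjusted p under 0.05, against 16.3%. *BRI1* had a log2 change of -0.58 (SE 0.08, limma adjusted p = 3.49e-05). The other 2 were *BRL1*, at -1.13 (SE 0.37), and *BRL3*, at -0.88 (SE 0.28), which again reached the minimum only through WT and are given as values. *BAK1* and *BKI1* met the study's criterion, at -0.20 and 0.37, with limma adjusted p = 0.146 and 0.0884. *BRI1* was 184.1 to 258.1 in the 7 *bes1-D* libraries and 249.9 to 343.2 in the 15 others, so 6 of 7 were below every other library. The exception was replicate 3 of *bes1-D* with BRZ. For *BRL3* 6 of 7 *bes1-D* libraries also lay below the 15 others, the lowest of which was 9.756. The margin was small, since replicate 3 of *bes1-D* without BRZ was 9.716. The exception was the same library as for *BRI1*, at 10.12. For neither gene was the share of all genes that separate in this way examined, so both are descriptions.

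Levels taken relative to each other within a library gave a description, chosen after the values were seen. *BRI1* relative to *BIN2* was 0.866 to 1.14 in WT, 0.845 to 1.07 in *baf1* and 0.536 to 0.724 in *bes1-D* without BRZ. With BRZ the range in *bes1-D* was 0.680 to 1.29 and overlapped with 0.820 to 1.13 in WT. *BKI1* was 10.1% to 11.8% of the *BRI1* level in WT, 14.3% to 17.6% in *baf1* and 18.6% to 26.8% in *bes1-D* without BRZ. These 3 ranges did not overlap, but the ratio was chosen with *BRI1* known to be lower and *BKI1* higher in *bes1-D*. How often other gene pairs separate in this way was not examined. In *baf1* without BRZ neither gene met a threshold by itself in the main fit. With BRZ they were 7.87% to 14.7%, 9.25% to 16.6% and 17.7% to 26.2%, so WT and *baf1* overlapped. The sum of *BIN2*, *BIL1* and *BIL2* had group means between 545.1 and 612.0, of which *BIN2* made up 49.5% to 55.0%.

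**Figure D3:**
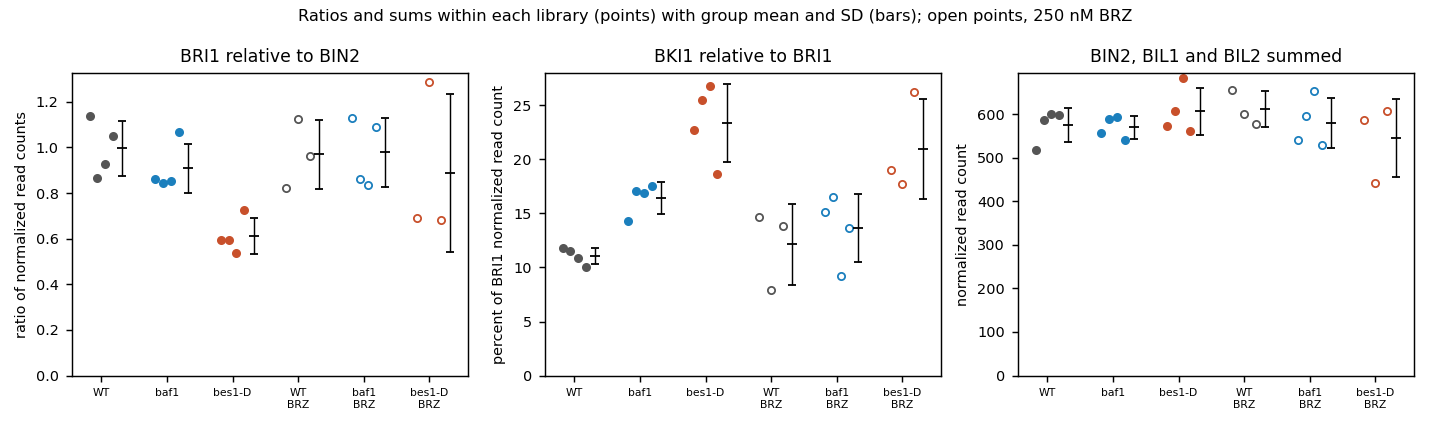
Within-library values (y axes, from 0) of the *BRI1* to *BIN2* ratio, of *BKI1* as a percentage of *BRI1*, and of the summed GSK3-like kinase genes, by genotype and BRZ (x axis). Points are libraries, bars give mean and SD, and open points had BRZ. Without BRZ, *BKI1* relative to *BRI1* occupies separate ranges in WT, *baf1* and *bes1-D*, while the kinase sum overlaps among genotypes. The ratios were chosen after the values were seen, and other gene pairs were not examined.

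In *baf1* without BRZ no member met the study's criterion, or an unadjusted P under 0.05 alone, among 9 tested with limma, while 10.3% of all genes met the criterion. At an adjusted p it was also 0 of 9, against 0.129% of genes. The smallest P-value was that of *BRI1*, which was 267.5 to 331.4 in WT and 249.9 to 269.0 in *baf1*. The log2 difference was -0.21 (SE 0.10, limma adjusted p = 0.491). *BKI1* was 28.24 to 38.98 in WT and 35.87 to 47.22 in *baf1*, a difference of 0.36 (SE 0.19, limma adjusted p = 0.537). The ranges of both genes overlapped with WT. The count was 1 or 2 when WT replicate 1, 2 or 5 or *baf1* replicate 1 or 2 was left out. Over all alternative fits, *BRI1* met the criterion in 7 of 16, *BKI1* in 3 of 15, *BSK1* in 3 of 16 and *BIL1* in 2 of 16.

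With BRZ, 0 of 9 members met the criterion in *baf1* against WT, or an unadjusted P under 0.05 with limma, while 5.6% of all genes met the criterion and 0.0488% an adjusted p. *BAK1* was 317.2, 270.2, 262.8 and 312.2 in *baf1* and 262.3, 251.1 and 245.2 in WT. The groups were separated by a small margin, 262.8 against 262.3, as were 6.69% of tested genes with any margin, and the log2 difference was 0.20 (SE 0.12, limma adjusted p = 0.909). A fit of WT and *baf1* over both media with BRZ as a term, chosen after seeing the data, used 15 libraries and called 2 of 9 members, against 10.2% of genes. They were *BRI1* at -0.20 (SE 0.07, limma adjusted p = 0.309) and *BSK1* at -0.18 (SE 0.09, limma adjusted p = 0.472). At an adjusted p, 0 of 9 passed, against 0.496% of genes.

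The response to BRZ itself asked whether seedlings with a low BR supply adjusted transcripts of the receptor system. In WT no member met the criterion or an unadjusted P under 0.05 among 9 tested with limma, while 10.2% of all genes met the criterion and 0.605% an adjusted p. *BRI1* was 267.5 to 331.4 without and 305.8 to 343.2 with BRZ, a log2 difference of 0.12 with a 95% interval from -0.13 to 0.38. *BIN2* had a difference of 0.16, with an interval from -0.11 to 0.44. *BRL1* had the smallest P-value, with a difference of -0.73 and an interval from -1.64 to 0.18. The biosynthesis gene *DWF4* more than doubled in the same libraries. For *BRI1*, *BAK1*, *BSK1*, *BIN2*, *BIL1* and *BIL2*, the intervals leave out a doubling and a halving. In WT without its replicate 4 grown without BRZ, 1 member met the criterion.

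In *bes1-D*, 0 of 7 tested members met the criterion or an unadjusted P under 0.05 with limma under BRZ, while 14.6% of genes met the criterion and 0.576% an adjusted p. *BRL1* and *BRL3* were under the minimum mean there. *BRI1* was 184.1 to 208.7 without and 202.9 to 258.1 with BRZ, a log2 difference of 0.23 (SE 0.13, limma adjusted p = 0.425). Without replicate 1 or 5 grown with BRZ, 1 member met the criterion.

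In *baf1*, 1 of 9 members met the criterion under BRZ, against 12.5% of genes, and 0 of 9 an adjusted p, against 1.8%. This was *BIL2*, a close relative of BIN2. It was 77.03, 73.74, 78.33 and 67.42 without BRZ and 90.23, 81.13, 104.6 and 93.48 with BRZ. The groups did not overlap, as in 7.72% of tested genes, and *BIL2* rose by 24.0%, a log2 change of 0.31 (SE 0.14, limma adjusted p = 0.365). The exact permutation p was 0.029, the smallest possible here. The call was lost in 6 of 15 alternatives, among them without replicate 4 of either group and without replicate 1 with BRZ. In WT the *BIL2* values were 70.27 to 97.42 without and 71.12 to 81.86 with BRZ. The 3′ end of *BIL2* overlaps AT1G06400 on the other strand over 265 bases. That gene was far higher and averaged 394.3 ± 17.9 without and 338.3 ± 15.0 with BRZ in *baf1*. The part of this overlap in the *BIL2* result was not tested. *baf1* with BRZ also held the highest seed transcripts, with sums of 140.8 to 1779, and the part of these in the *BIL2* result was not tested.

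The interaction of *baf1* with BRZ met an unadjusted P under 0.05 for 2 of 9 members, against 5.79% of genes, and for none at an adjusted p, against 0% of genes. *BIL2* had an interaction of 0.47 (SE 0.20, limma adjusted p = 0.846) and *BAK1* one of 0.34 (SE 0.16, limma adjusted p = 0.854). *BAK1* averaged 277.7 and 252.9 in WT and 249.6 and 290.6 in *baf1*, without and with BRZ. Without WT replicate 5 or *baf1* replicate 4 grown without BRZ, or without WT replicate 3 grown with it, 0 members passed, and 1 passed in 8 of the other fits of this kind.

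Over the 22 libraries the 36 pairs of members correlated with r between -0.416 (*BRL3* with *BKI1*) and 0.687 (*BRI1* with *BRL3*), with a median of -0.09, where the points share genotype and medium. After group means were removed, r ran from -0.527 (*BRI1* with *BIL1*) to 0.58 (*BAK1* with *BSK1*), with a median of -0.03. *BRI1* with *BRL3* was then 0.262. The genes most alike *BRI1* over 22 libraries, among 9248 with a mean of at least 50, began with the transcription factor gene *NAC6* (ANAC092, AT5G39610), at r = 0.935. For *BAK1* the gene was *BZIP60* (r = 0.884), for *BSK1* the villin gene *VLN3* (r = 0.826) and for *BKI1* the tubulin gene *TUB5* (r = 0.753). These are descriptions over the same libraries. For 5 members the annotated 3′ end overlaps a neighbouring gene. The neighbour of *BIN2*, AT4G18720, shares 1284 bases with it on the same strand, including the annotated 3′ end. AT4G18720 was listed at 0 in every group. How reads in the shared stretch were assigned is not known, and a loss of *BIN2* reads there was not tested. In the last 400 bases of each member, 0 of 36 windows of 50 bases occurred elsewhere in the genome, so reads from their 3′ ends can be told apart from those of relatives.

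A further 45 genes of receptor-proximal BR signalling, chosen by function and family, covered the relatives of the members. In *bes1-D* without BRZ 4 of 37 tested were higher and 2 lower by the study's criterion, with a median log2 difference of 0.09. Over all genes tested, 14.2% were higher and 8.06% lower, with a median of 0.08. With BRZ, 6 were higher and 1 lower of 37, with a median of 0.05, against 13.7% higher, 10.7% lower and a median of 0.04 over all genes. At an adjusted p under 0.05, 1 was lower without BRZ, and 4 were higher with BRZ, where 7.52% and 11.1% of all genes passed in either direction. The counts of the list were thus near or below those of all genes.

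The gene lower without BRZ was *BSK7*, a relative of *BSK1*. It was 428.8, 481.2, 496.3 and 508.0 in WT and 407.8, 376.8, 363.9 and 305.8 in *bes1-D*, without overlap (log2 change -0.40, SE 0.11, limma adjusted p = 0.0295). With BRZ it was 343.1 to 386.5 in WT and 302.3 to 397.1 in *bes1-D*, a log2 difference of -0.07 with a 95% interval from -0.37 to 0.23. *BSK7* was also lower with BRZ in WT, at 386.5, 362.0 and 343.1, by the study's criterion (log2 change -0.39, limma adjusted p = 0.169).

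The genes higher with BRZ included *SERK4*, a relative of *BAK1* that can act as co-receptor. It was 6.428, 8.171 and 14.15 in WT and 31.51, 16.94 and 33.12 in *bes1-D* with BRZ (log2 change 1.42, SE 0.40, limma adjusted p = 0.0225). Its WT mean with BRZ, 9.58, was under the minimum of 10, so it entered the test through the group where it is higher. Every *bes1-D* library was above every WT library. *SERK1* and *SERK2*, further co-receptor genes, were higher in *bes1-D* without BRZ by the study's criterion, at 0.41 and 0.45, with limma adjusted p = 0.201 and 0.221. So the co-receptor genes *BAK1* and *SERK4* had differences of opposite sign without BRZ, -0.35 and 0.84, both by the study's criterion.

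*BIR1*, which encodes a BAK1-interacting receptor kinase that restrains immune signalling, was 419.5, 386.0 and 369.7 in WT and 664.1, 732.7 and 551.4 in *bes1-D* with BRZ (log2 change 0.72, SE 0.14, limma adjusted p = 0.0017). Without BRZ it was 483.1 to 520.5 in WT and 456.0 to 611.3 in *bes1-D*. The interaction for *BIR1* was 0.62 (SE 0.17, limma adjusted p = 0.105). *SK12*, a GSK3-like kinase gene outside the *BIN2* group, was 221.2 to 269.2 in WT and 331.2 to 427.8 in *bes1-D* with BRZ (log2 change 0.68, limma adjusted p = 0.00499). Without BRZ *SK12* was also higher in *bes1-D*, at 280.3 to 307.8 against 222.2 to 272.3 in WT. *OPS*, whose product binds BIN2 and is known for phloem development, was 63.7 to 77.13 in WT and 119.2 to 143.4 in *bes1-D* with BRZ (log2 change 0.91, limma adjusted p = 0.00222). Without BRZ *OPS* was 70.97 to 115.9 in WT and 90.66 to 122.4 in *bes1-D*. The ranges of the 3 genes and of *SERK4* did not overlap between genotypes with BRZ, nor did those of 27.9% of all tested genes.

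**Figure D4:**
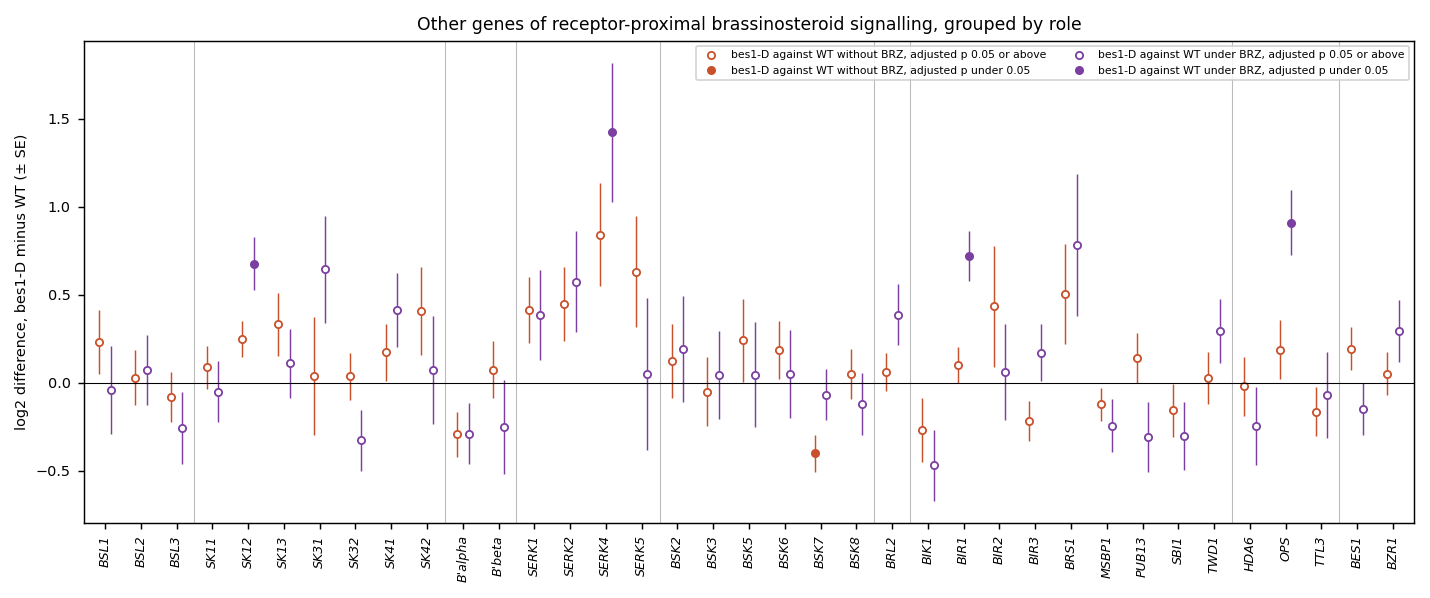
Log2 difference between *bes1-D* and WT (y axis, ± SE) for the tested genes of the wider list (x axis, grouped by role), without BRZ in red and with BRZ in purple. Filled points had an adjusted p under 0.05. *BSK7* is filled and low without BRZ, and *SERK4*, *BIR1*, *SK12* and *OPS* are filled and high with BRZ.

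In *baf1* without BRZ, 1 gene of the wider list was higher and 1 lower of 37 by the study's criterion, against 10.3% of all genes in either direction, and with BRZ 2 were higher and 1 lower of 38, against 5.6%. BRZ gave 1 higher and 2 lower of 38 in WT (10.2% of all genes), 3 and 3 of 38 in *baf1* (12.5%), and 4 and 0 of 37 in *bes1-D* (14.6%). With limma, 0 of these passed an adjusted p under 0.05.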

How the data were processed

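Total RNA from whole seedlings was sequenced by the authors with QuantSeq 3′ libraries. The submitters' processing notes name TAIR10, STAR, HTSeq and edgeR, and the methods a Lexogen QuantSeq FWD pipeline. The deposited table, named for TMM, holds a normalized signal for each gene, called normalized read count here, which the authors adjusted to a common library size. Values are not whole, so no count model was fitted, and 0 per-sample columns were left out.

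Groups were taken from the labels and compared with limma 3.58.1 in R 4.3.3 (lmFit, eBayes with trend) on log2(value + 1), keeping genes that averaged 10 or more over the fitted libraries. The study's criterion (fold change above 1.1, P under 0.05) was used with limma P-values in place of the study's PoissonSeq. Benjamini-Hochberg adjusted p-values over all tested genes were also used. Labels do not say whether replicates were separate cultures, so p-values measure the spread between these samples. Single genes were also compared by exact permutation, two-sided. Depth was estimated by inverting a quantile adjustment for 300 low genes with an assumed dispersion of 0.05, and intervals from it cover counting error only. Fold thresholds, pseudocounts (0.1 and 5), filters, median-of-ratios size factors, the libraries fitted and the replicate number were varied.

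The 10 members, the wider list of 45 genes and the marker lists were chosen with earlier results of these data known. All members are named, and of the wider list those past an adjusted p of 0.05 in a comparison of groups. *BSL1*, *BSL2* and *BSL3* are named for their levels, and *SERK1* and *SERK2* were added after their values were seen. In the later fit of *bes1-D* and WT over both media, *SERK2* (log2 change 0.50, limma adjusted p = 0.0342) and the protein phosphatase 2A subunit gene *B'alpha* (-0.29, limma adjusted p = 0.0443) also passed. Positions and sequences come from RefSeq TAIR10.1, whose annotation matched 32548 of 32833 identifiers. Plots were drawn with matplotlib 3.10.9.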

Additional observations from a re-analysis of the deposited data

Results flagged for a closer look

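*BRI1* in replicate 4 of *bes1-D* without BRZ was 208.7, apart from the other 3 libraries at 184.1 to 188.0, with a gap of 0.845 of the group's range. It remained below every WT library. *BAK1* in replicate 5 of WT without BRZ was 338.0, apart from the others at 252.1 to 262.1, with a gap of 0.884 of the range. Of 36 groups of 4 libraries examined 2 stood out in this way, and chance alone gives about 1 in 20 groups.

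The interaction of *baf1* with BRZ was 0.3438 on the log2 scale for *BAK1* (limma adjusted p = 0.854, unadjusted P under 0.05). For *BIL2* it was 0.4687 (limma adjusted p = 0.846, unadjusted P under 0.05). These were 2 of 18 interactions examined, and neither passed the adjustment over all genes. For *baf1* it was 2 of 9 members at that unadjusted P, against 5.79% of all genes. For *bes1-D* it was 0 of 9, against 13.7%. A different response to BRZ in *baf1* is thus not shown for either gene.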

How the results depend on the processing

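No member difference that met the criterion changed direction in any alternative. *BRI1* in *bes1-D* without BRZ passed both thresholds in all 16 alternatives (adjusted p at most 0.0134). *BAK1* lost the study's criterion there with the replicate number as a block. Of 159 alternative values for counts of members called, 59 moved. With no filter on low values the count became 2 instead of 0 for *baf1* against WT without BRZ, 1 instead of 0 for the same with BRZ, 1 instead of 0 for BRZ in *bes1-D*, and 1 instead of 0 for the interaction of *bes1-D*. A minimum mean of 50 gave 1 for *baf1* and 2 instead of 5 for *bes1-D* without BRZ. Size factors gave 2 for *baf1* without BRZ, 2 instead of 1 for *bes1-D* with BRZ and 1 for the interaction of *bes1-D*. A fold change above 1.5 gave 3 for *bes1-D* without BRZ, 0 for *bes1-D* with BRZ and 0 instead of 1 for BRZ in *baf1*. Adjusted p-values gave 1 for *bes1-D* without BRZ, 0 for BRZ in *baf1* and 0 instead of 2 for the interaction of *baf1*. Fitting all 22 libraries gave 1 for BRZ in *bes1-D* and 2 for *bes1-D* with BRZ. Both media with BRZ as a term, an alternative added later, gave 2 for *baf1*. The causes of these moves were not tested, except that filters and thresholds change which genes can be called.

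Deviations from group means of same-numbered libraries had a median r of 0.0987 over 42 pairs, 21 of them over 0.1, against -0.0254 and 42 of 159 for different numbers. In no comparison were all pairs over 0.1, the limit set for pairing, so the main fits leave the replicate number out. A library correlated best with its own number in 32 of 60 cases, each among the 3 or 4 libraries of another group. A random pick among them would do so less often. Same-numbered pairs also had the higher median r. The main fits do not account for an effect shared by same-numbered libraries, and its source was not tested. The block moved adjusted calls over all genes from 21 to 303 for *baf1* and from 1224 to 2238 for *bes1-D* without BRZ, and from 94 to 0 for BRZ in *bes1-D*. With the replicate number as a block, the counts were 2 for *baf1* and 3 for *bes1-D* without BRZ, 1 for BRZ in WT, 0 for BRZ in *baf1*, 3 for *bes1-D* with BRZ, and 1 for each interaction. Leaving out a library in turn gave 0 to 2 for *baf1* without BRZ, 3 to 5 for *bes1-D* without BRZ (3 without WT replicate 2 or 5), 0 to 1 for BRZ in WT (1 without replicate 4 grown without BRZ), 0 to 2 for BRZ in *baf1*, 0 to 1 for BRZ in *bes1-D* (1 without replicate 1 or 5 grown with BRZ), 1 to 2 for *bes1-D* with BRZ, 0 to 2 for the interaction of *baf1* and 0 to 1 for that of *bes1-D*. Depth limits *BRL1*, *BRL3* and *BSU1* most.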
